A study of Mus musculus with 6 samples.

Results

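The solute carriers described here move inorganic ions and metals across membranes: cation-chloride cotransporters (Slc12a symbols), bicarbonate transporters (Slc4a), anion exchangers (Slc26a), sodium-proton exchangers (Slc9a), sodium-calcium exchangers (Slc8a and Slc24a), phosphate carriers (Slc20a), magnesium carriers (Slc41a), zinc exporters and importers (Slc30a and Slc39a), and carriers of iron and other divalent metals (Slc11a and Slc40a). They were matched by gene symbol, and 71 of the 16464 probe sets with a symbol matched, each for a different gene. Of these, 3 carry a matching symbol without being carriers: Slc9a3r1 and Slc9a3r2 encode scaffold proteins, and Slc4a1ap encodes an adaptor named after the band 3 anion exchanger.

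RNA of the dissected habenula of adult mice, 6 to 12 weeks old, was measured on 6 Affymetrix arrays. All the mice belonged to the bacterial artificial chromosome line Chat DW167, in which tagged ribosomes of cholinergic neurons can be affinity purified with the messenger RNA they carry (TRAP). The immunoprecipitate (IP, 3 arrays) is RNA of medial habenular cholinergic neurons from such ribosomes. The unbound fraction (UB, 3 arrays) is what the purification left of each preparation, and it stands for the whole tissue piece. The labels give no drug treatment, and an untagged line is not among the samples. The labels also do not say how many animals went into a preparation. P-values measure only the spread left between preparations of 1 line after replicates were normalized within groups. The SE of the control scaling between the fractions (0.212 on the log2 scale, over arrays) does not enter them. Because UB is bulk RNA, fewer cells of a type and less RNA per cell cannot be told apart in it.

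Chloride, protons, calcium and zinc are held away from equilibrium in neurons to differing degrees, and many of these carriers spend gradients that the ion pumps build. In mature neurons the potassium-chloride cotransporter KCC2 (Slc12a5) extrudes chloride, which makes the opening of GABA-A channels inhibitory, while the sodium-potassium-chloride cotransporter NKCC1 (Slc12a2) loads cells with chloride. In the rodent medial habenula GABA has been described as depolarising. Bicarbonate carriers and sodium-proton exchangers set the pH, sodium-calcium exchangers clear calcium after activity, and zinc carriers move zinc out of the cytosol (Slc30a) or into it (Slc39a), many of them in the membranes of the Golgi apparatus and other compartments.

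Levels are the deposited log2 values. A reading of at least 50 before the log (5.644 after it) counts as signal, and a gene was tested if 3 or more of the 6 arrays gave signal. That held for 35 of the 71 genes, with 23 or 24 of the 71 above 50 on an IP array and 35 or 36 on a UB array. All 10 habenula markers measured were called higher in IP (median log2 fold change 2.57), with a summed linear level of 108738 to 129523 in IP against 32087 to 40254 in UB. Among all tested probe sets 30.9% were called higher, and the markers were chosen with earlier results of these data known. The gene Chat was not analysed.

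Of the 35 tested genes, 6 were called higher in IP (17.1%) and 23 lower (65.7%), and 6 were not called (limma, adjusted p under 0.05). Among all 8960 tested probe sets 30.9% were called higher and 43.5% lower, 74.5% in either direction. With a change of at least 2-fold as well, 1 gene was called higher and 14 lower, against 14.3% and 28.0% of all probe sets. The median log2 fold change of the tested members was -0.82 against -0.17 over all tested probe sets. These counts hold for scaling on the biotinylated hybridisation controls that the authors recommend. When the median over the whole table was set equal between the fractions (whole-table median scaling), every value moved up by 1.55, and 21 members were called higher and 10 lower. Setting the median of the tested probe sets equal instead (tested-set median scaling, a shift of 0.33) gave a split of 11 to 20, and quantile normalization (0.26) gave 10 to 18. Of the 35, 11 had signal in UB alone (31.4%, against 15.3% of all tested probe sets), so that they had to differ, and 0 had signal in IP alone (against 3.93%). Folds given below as "at least" or as a bound belong to genes with signal in 1 fraction alone. The filter fixed the direction of such genes under control scaling. The plot of levels on each array shows the 35 genes.

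**Figure D1:**
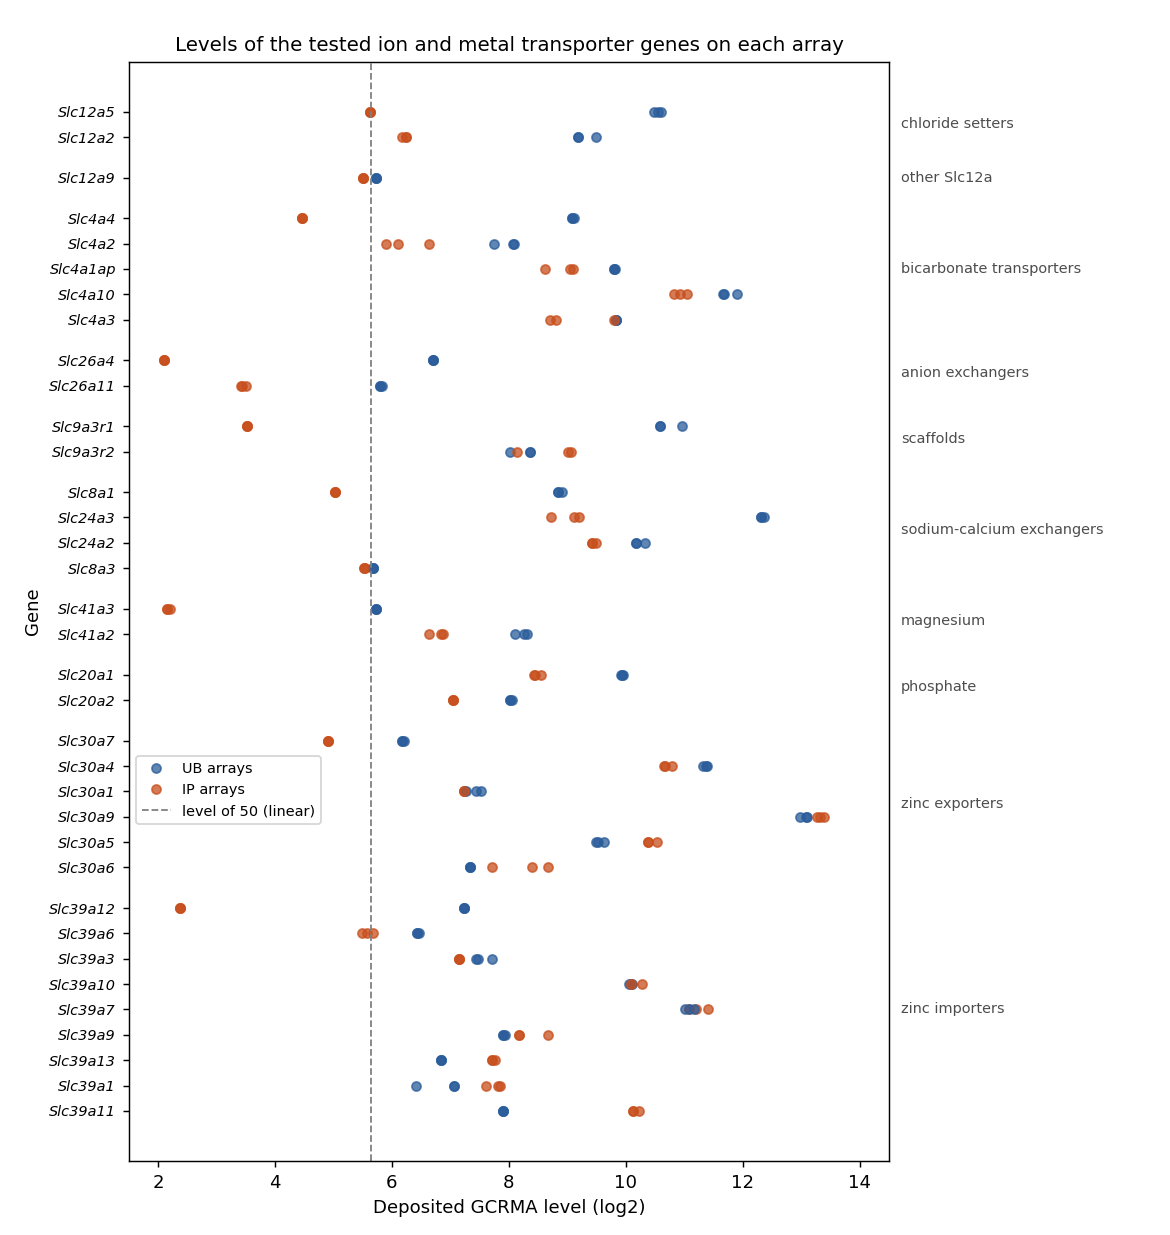
Deposited log2 level (x axis) of each of the 35 tested genes (rows, grouped by ion) on the 3 IP arrays (orange) and 3 UB arrays (blue). The dashed line marks a linear level of 50. The orange points of Slc12a5 lie just left of that line at 5.63 and its blue points at 10.48 to 10.60, while Slc39a11 is the gene with the orange points farthest to the right of its blue points.

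Both chloride setters were far lower in IP. Slc12a5 (KCC2, Entrez gene 57138) was tied at 5.63 across the IP arrays and read 10.48, 10.54 and 10.60 in UB. The IP level lay just under 50, so the gene was at least 30.1-fold lower in IP (limma, log2 fold change -4.93 ± 0.03 SE, adjusted p = 1.56e-08). Slc12a5 had signal in UB alone, so the filter fixed its direction under control scaling. Slc12a2 (NKCC1, Entrez gene 20496) stood at 6.24, 6.24 and 6.17 in IP and at 9.49, 9.18 and 9.18 in UB. It retained a signal on every IP array, and the fractions did not overlap. The difference was 8.46-fold (log2 fold change -3.08 ± 0.10, adjusted p = 7.14e-06). Under every other scaling both stayed lower, with smallest differences of -3.38 for Slc12a5 and -1.53 for Slc12a2 under whole-table median scaling.

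Slc12a5, the gene with the larger of the 2 chloride differences, has 2 promoter windows in the RefSeq table (build GRCm38.p6). The downstream start is shown, which is the 1 of the 2 that holds the motif marked. The window covers the 250 bases before that start on the plus strand (chr2:164967738-164967987). Capitals mark an E-box (CACGTG), which begins 36 bases before the start. Of 32851 such windows of all genes, 6.02% hold CACGTG, and the upstream window of Slc12a5 does not. Among the other tested genes, Slc41a3, Slc12a9, Slc20a1 and Slc30a5 hold it at the first listed start.
Slc12a5: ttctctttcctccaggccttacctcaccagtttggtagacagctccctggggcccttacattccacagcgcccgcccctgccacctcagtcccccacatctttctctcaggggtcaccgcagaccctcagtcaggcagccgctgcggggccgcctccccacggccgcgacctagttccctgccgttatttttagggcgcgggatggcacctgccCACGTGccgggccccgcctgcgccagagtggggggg

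The other Slc12a genes gave little signal. Slc12a9, a family member without an agreed ion substrate, read 5.5 in every IP and 5.73 in every UB sample. It was called lower (log2 fold change -0.24, adjusted p = 1.11e-06), but the call rested on values tied within each fraction and turned to 1.31 under whole-table median scaling and to 0.99 with quantile normalization. Slc12a9 had signal in UB alone, so the filter fixed its direction under control scaling. Slc12a4 (KCC1) read 2.21 in IP and 5.06 in UB, while Slc12a8 read 2.10 and 4.41, both under 50 on all arrays. Slc12a1, Slc12a3 and Slc12a7 lay within 0.1 of the table's lowest level, which was 2.10 in IP and 2.05 in UB.

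Of 8 measured regulators of chloride transport, 6 were tested, 1 rose and 4 fell (median log2 fold change -0.91). The shares to set beside this list and the later lists of partners are 30.9% higher and 43.5% lower, those of all tested probe sets. Stk39, the kinase SPAK that phosphorylates NKCC1 and KCC2, was 1.4-fold higher in IP (9.97 in UB, 10.47 in IP, adjusted p = 0.00718). The Stk39 call was lost without preparation 1 (adjusted p = 0.051) or 3 (0.0658) and with a control offset for each array (0.158). Wnk1, a chloride-sensing kinase upstream of SPAK, was 2.78-fold lower (adjusted p = 1.11e-05), and Wnk3 at least 2.21-fold lower (adjusted p = 0.00171). The chloride channel gene Clcn2, a route of chloride exit, was at least 1.24-fold lower (adjusted p = 2.14e-06), with an IP mean of 3.52 against 5.94, and Clcn3, a chloride-proton exchanger of endosomes, was 1.2-fold lower (adjusted p = 0.0411), a call lost when any array but UB replicate 1 was left out (adjusted p from 0.0705 to 0.119). Wnk2 was not called (-0.35, adjusted p = 0.15). Under whole-table median scaling Wnk1 and Clcn3 changed sign, to 0.07 and 1.29, and Wnk3 was no longer called (-0.60, adjusted p = 0.0959). Clcn3 was at 0.07 and not called under tested-set median scaling (adjusted p = 0.496).

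Of 10 measured genes with an Slc4a symbol, the adaptor gene Slc4a1ap among them, 5 were tested. Of these 5, 4 were called lower, Slc4a1ap included, against 43.5% of all tested probe sets. Slc4a4 had signal in UB alone, so the filter fixed its direction. Slc4a4, the electrogenic sodium-bicarbonate cotransporter NBCe1, was at 4.46 on all 3 IP arrays and at 9.08, 9.12 and 9.08 in UB, at least 11-fold lower in IP (limma, log2 fold change -4.65 ± 0.02, adjusted p = 1.37e-09). Slc4a2 (the anion exchanger AE2) stood at 5.90, 6.11 and 6.63 in IP and 7.75, 8.09 and 8.07 in UB, a 3.43-fold decrease (-1.78 ± 0.23, adjusted p = 0.00152). Under whole-table median scaling the Slc4a2 difference was -0.23 and no longer called (adjusted p = 0.375, range 8.66e-09 to 0.375 over all alternatives).

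Slc4a10, the sodium-driven bicarbonate carrier of neurons and choroid plexus, kept high signal in IP. Its levels were 11.05, 10.93 and 10.82 in IP and 11.89, 11.66 and 11.68 in UB, a 1.77-fold difference (-0.82 ± 0.09, limma adjusted p = 0.00106). Slc4a3 (AE3, the anion exchanger of excitable cells) was at 8.71, 8.81 and 9.79 in IP and 9.83 on all UB arrays. IP replicate 3 nearly reached the UB level, and the gene was not called (-0.74 ± 0.32, adjusted p = 0.0911). Without IP replicate 3 it was called lower (-1.08, adjusted p = 1.15e-04, range 1.15e-04 to 0.366 over all alternatives). The adaptor gene Slc4a1ap was 1.86-fold lower (8.92 ± 0.26 SD in IP, 9.80 ± 0.02 in UB, adjusted p = 0.00342). Slc4a10, Slc4a3 and Slc4a1ap changed sign, to 0.73, 0.81 and 0.65, under whole-table median scaling. Slc4a1 (band 3 of red cells), Slc4a5, Slc4a8, Slc4a9 and Slc4a11 were within 0.1 of the lowest level in both fractions.

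Active carbonic anhydrases make the bicarbonate that these carriers move, but not every gene with a Car symbol encodes an active enzyme. Of 9 genes with a Car symbol measured, active or not, 7 were tested, 2 rose and 4 fell (median -1.40). The cytosolic neuronal form Car7 was 2.24-fold higher in IP (adjusted p = 0.0039) and Car10, a catalytically inactive relative, 2.84-fold higher (11.33 on every UB array, 12.79 to 12.95 in IP, adjusted p = 7.54e-06). Car2, common in glia, was 2.63-fold lower (adjusted p = 0.019), and Car8, Car14 and Car4 had lower bounds of 4.02-fold, 2.34-fold and 3.01-fold on their decrease. Car11 was not called (-0.56, adjusted p = 0.138), but its 3 preparations gave -0.58 to -0.54, and with the replicate block it was called lower (adjusted p = 0.00111). Under whole-table median scaling Car11 was instead called higher (0.99, adjusted p = 0.0242). Car2 lost its call with the block (adjusted p = 0.051), without UB replicate 1 (0.0638) or 3 (0.0629) and without preparation 2 (0.0867) or 3 (0.0953), and was at 0.15 under whole-table median scaling. Car7 lost its call without preparation 2 (1.07, adjusted p = 0.0719). Of the 5 measured partners of bicarbonate and proton exchangers 4 were tested. Ahcyl1, whose protein (IRBIT) activates NBCe1, was 1.43-fold higher (adjusted p = 8.36e-04, lost with a control offset for each array, 0.124). Chp2, a calcineurin-like cofactor, was at least 1.07-fold lower (adjusted p = 7.97e-04) and reversed under whole-table median scaling (0.46) and quantile normalization (0.29). Ahcyl2 was called lower by 0.10 on the log2 scale (adjusted p = 0.0355), was not called with the replicate block (0.0678), and was at 1.45 under whole-table median scaling. Chp1 was not called (-0.74, adjusted p = 0.199) except without UB replicate 2 (-1.17, adjusted p = 0.0342) or with a control offset for each array (0.0215). The list's median was -0.42.

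Anion exchangers and sodium-proton exchangers were scarcely detected. Slc26a4, the chloride, iodide and bicarbonate exchanger pendrin, was at the lowest level in IP and at 6.71 in every UB sample, at least 2.12-fold lower (limma, adjusted p = 9.55e-13). Slc26a11, a sulphate and chloride carrier, was at 3.42, 3.51 and 3.44 in IP and 5.79, 5.79 and 5.83 in UB, at least 1.13-fold lower (adjusted p = 1.18e-07). Slc26a4 and Slc26a11 had signal in UB alone, so the filter fixed their direction under control scaling. The other 7 Slc26a genes measured, Slc26a1, Slc26a2, Slc26a3, Slc26a5, Slc26a6, Slc26a7 and Slc26a8, were within 0.1 of the lowest level everywhere. None of the 4 sodium-proton exchanger genes measured passed the filter: Slc9a2, Slc9a5, Slc9a8 and Slc9a9 lay between 2.05 and 2.47 on every array.

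Both scaffold genes named after the sodium-proton exchanger NHE3 were tested. Slc9a3r1 (NHERF1, which ties membrane carriers to the actin cortex) was at 3.53 on all IP arrays and at 10.95, 10.59 and 10.59 in UB. It was at least 33.9-fold lower in IP, the largest bound among the 35 tested genes (log2 fold change -7.19 ± 0.11, limma adjusted p = 3.99e-07). Slc9a3r1 had signal in UB alone, so the filter fixed its direction under control scaling. Slc9a3r2 (NHERF2) was at 8.14, 9.01 and 9.06 in IP and 8.01, 8.36 and 8.36 in UB. The fractions overlapped and it was not called (0.48 ± 0.30, adjusted p = 0.204), although IP was above UB in all 3 preparations. Without IP replicate 1 it was called higher (0.77, adjusted p = 0.0110, range 0.00106 to 0.497 over all alternatives).

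All 4 tested sodium-calcium exchangers were called lower, 2 of them by at least 2-fold, against 43.5% and 28.0% of all tested probe sets. Slc8a1 and Slc8a3 had signal in UB alone, so the filter fixed their direction under control scaling. Slc24a3 (NCKX3, which exchanges sodium for calcium and potassium) stood at 8.72, 9.12 and 9.19 in IP and 12.36, 12.30 and 12.30 in UB, 10-fold lower but still well above 50 in IP (limma, -3.33 ± 0.14, adjusted p = 1.93e-05). Slc8a1 (NCX1) was at 5.03 on all IP arrays and 8.84, 8.91 and 8.84 in UB, at least 9.42-fold lower (adjusted p = 1.28e-08). Slc24a2 (NCKX2, a neuronal exchanger) was only 1.74-fold lower, at 9.42, 9.49 and 9.42 against 10.18, 10.18 and 10.32 (-0.80 ± 0.05, adjusted p = 1.03e-04). Slc8a3 (NCX3) was near 50 in both fractions, at 5.53 to 5.54 in IP and 5.68 in UB, and its call (-0.16, adjusted p = 7.01e-06) was lost with a control offset for each array (adjusted p = 0.634, range 1.63e-09 to 0.634). Under whole-table median scaling Slc24a2 and Slc8a3 were higher in IP (0.75 and 1.39). Slc8a2, Slc24a1 and Slc24a4 were within 0.1 of the lowest level.

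Slc4a4, Slc9a3r1 and Slc39a12 are known from astrocytes and Slc12a2 from glia and choroid plexus, and markers of such cells were lower in IP as well. All 8 tested astrocyte markers of 9 measured fell. Their summed linear level was 1042 to 1391 in IP against 22610 to 27541 in UB, and Aqp4, Aldh1l1, Slc1a3, Slc1a2, Gfap and Fgfr3 were within 0.1 of the lowest level in IP. All 8 oligodendrocyte markers fell (336 to 399 against 25710 to 29860, with Mag and Mobp at the lowest level), as did 5 of 6 tested microglial markers (267 to 313 against 3392 to 3623, with C1qb, Csf1r, Cx3cr1 and Tyrobp at the lowest level). The sixth, C1qa, was at 7.58, 7.83 and 7.90 in IP and 6.00, 7.49 and 7.14 in UB, above UB on every array but not called (0.88, adjusted p = 0.12). Markers of other neurons fell as well. All 7 thalamic markers (2436 to 2585 against 24908 to 25989, with 0 of 7 at the lowest level in IP) and all 5 inhibitory neuron markers (60 to 63 against 2931 to 4347, with Gad2, Slc32a1 and Sst at the lowest level) were lower in IP. Under 50 on all 3 IP arrays were 7 of the 9 astrocyte, 5 of the 8 oligodendrocyte and 5 of the 7 microglial markers measured. So were 3 of the 7 thalamic and all 5 inhibitory markers. Those of them that were tested had signal in UB alone, so the filter fixed their direction. Of all tested probe sets 43.5% were called lower. The part of these glial cells and other neurons in the decreases of the transporter genes was not tested.

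Ependymal and choroid plexus markers varied between preparations. Their summed level was 33460 on UB replicate 1 against 11020 and 15439 on the other UB arrays, and 1811 to 3687 in IP. Of the 8 measured, 2 were tested. Ttr fell and Otx2 rose, and Kl, Clic6, Kcnj13, Foxj1 and Dnah5 were at the lowest level in IP. Slc12a2, Slc9a3r1 and Slc4a10 each had their highest UB value on replicate 1, while Slc4a2 had its lowest there, and the part of choroid plexus RNA in these values was not tested. Without UB replicate 1 the Slc12a2 difference was -2.98, and over all arrangements with an array or a preparation left out it ran from -3.14 to -2.98. Of the 7 endothelial and mural markers 1 was tested, had signal in UB alone and fell. Their summed level was 31 in IP on every array and 263 to 623 in UB. Pecam1, Flt1, Cdh5, Pdgfrb and Rgs5 were at the lowest level in IP. The 1 measured blood marker, Alas2, was not detected in either fraction (4 and 5).

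**Figure D2:**
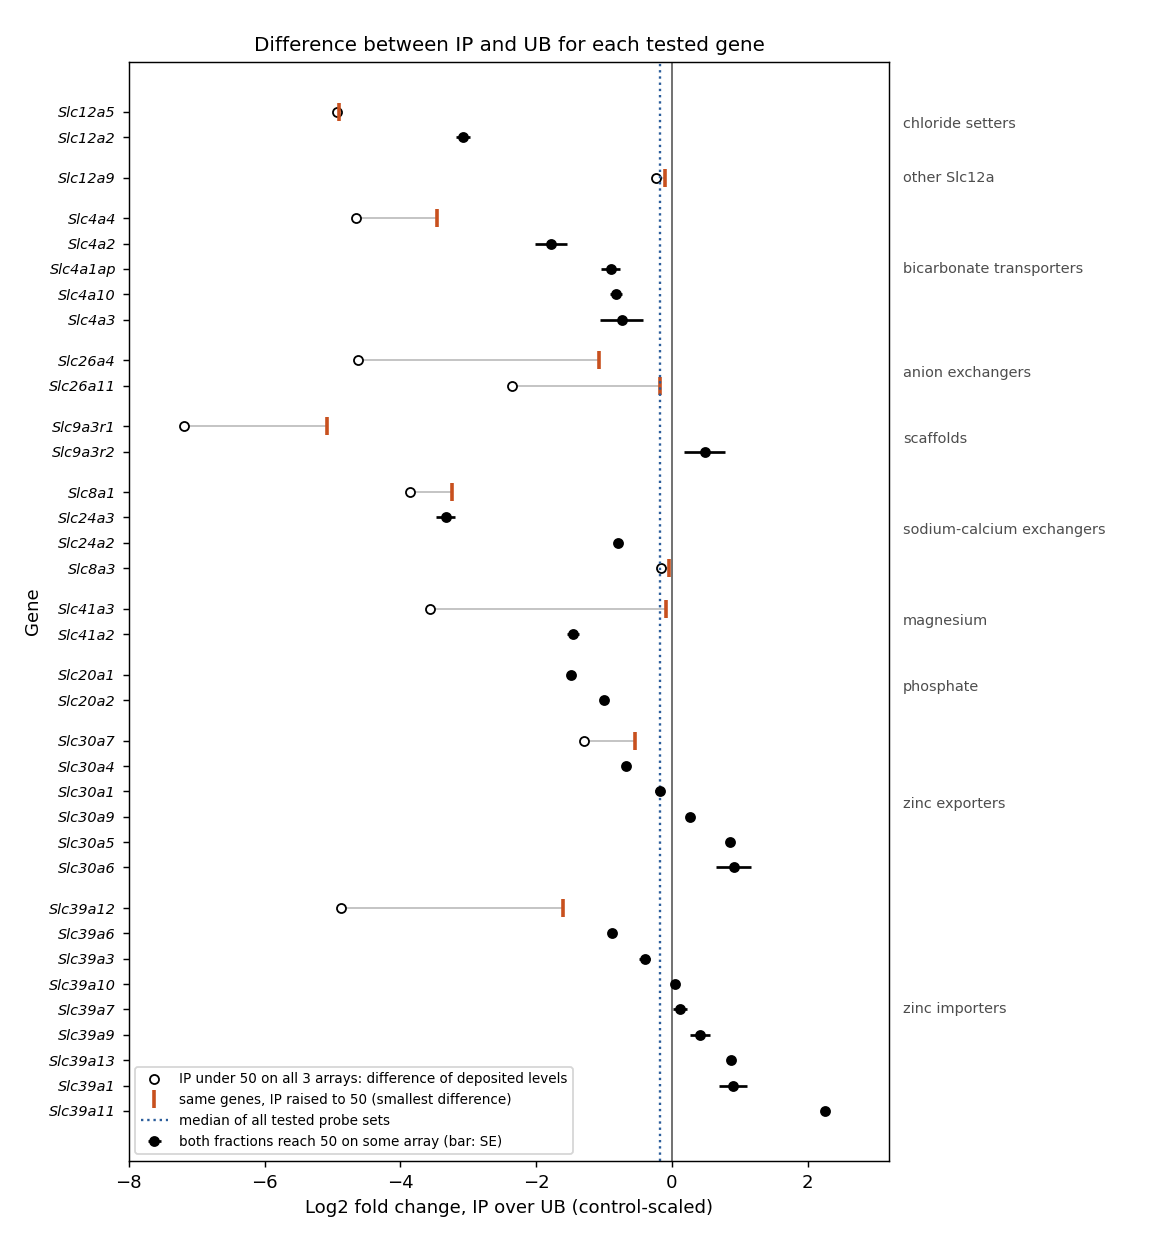
Log2 fold change of IP over UB (x axis) for the 35 tested genes, grouped by ion. Filled points with SE bars are genes with signal in both fractions. Open points are genes under 50 on all 3 IP arrays, joined to an orange tick at the smallest difference those arrays allow. The dotted line is the median of all tested probe sets at -0.17. The points to the right of 0 are zinc transporters and the scaffold gene Slc9a3r2 (0.48, not called).

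All 6 genes called higher in IP were zinc transporters. Of the 15 zinc transporters tested, 40% were called higher and 33.3% (5 genes) lower, against 30.9% and 43.5% of all tested probe sets. Of the 20 other tested members, 0 were called higher and 18 lower, but this rests on the scaling: 2 of those 20 were called higher under tested-set median scaling, 3 with quantile normalization and 7 under whole-table median scaling. The median log2 fold change was 0.12 for the zinc transporters and -1.63 for the others, or -1.04 with levels under 50 raised to 50 (1.67 and -0.08 under whole-table median scaling). Of the other members 9 of 20 had signal in UB alone, against 2 of 15 zinc transporters, and no test of the difference between the 2 lists was made.

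Slc39a11 (ZIP11, an importer of intracellular membranes, Entrez gene 69806) was the only gene of the 71 called at least 2-fold higher. Its levels were 10.12, 10.12 and 10.22 in IP and 7.89 on every UB array. The fractions were clearly apart, with a 4.76-fold difference (limma, log2 fold change 2.25 ± 0.04, adjusted p = 4.85e-07) that kept its direction and call in all 18 alternatives. Slc39a13 (ZIP13, which releases zinc from Golgi vesicles) was at 7.71, 7.71 and 7.77 in IP and 6.84 on every UB array, 1.82-fold higher (0.87 ± 0.02, adjusted p = 2.46e-06). Slc39a1 (ZIP1, an importer of the cell surface) was 1.86-fold higher, at 7.61, 7.84 and 7.81 against 7.06, 7.06 and 6.41 (0.90 ± 0.21, adjusted p = 0.0146). UB replicate 3 lay lowest for Slc39a1. The call was lost without IP replicate 2 (adjusted p = 0.0525) or 3 (adjusted p = 0.0513) and without both arrays of preparation 1 (adjusted p = 0.0591) or 2 (adjusted p = 0.0898), while the smallest adjusted p of any alternative was 2.25e-04.

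Of 6 tested exporters 3 were called higher and 2 lower, against 30.9% and 43.5% of all tested probe sets. ZnT5 and ZnT6 form a heteromer that fills the early secretory pathway with zinc. Slc30a5 (ZnT5) was at 10.53, 10.38 and 10.37 in IP and 9.53, 9.49 and 9.63 in UB, 1.82-fold higher (0.86 ± 0.06, limma adjusted p = 1.88e-04). Slc30a6 (ZnT6) was at 7.71, 8.39 and 8.66 in IP and 7.33 on all UB arrays, 1.88-fold higher with a wide IP spread (0.91 ± 0.26, adjusted p = 0.0278). With the replicate number as a block Slc30a6 was not called (adjusted p = 0.0517), nor without IP replicate 2 or 3 or any single UB array (adjusted p from 0.0585 to 0.0866, range 4.99e-04 to 0.194 over all alternatives). Slc30a9 (ZnT9, a zinc exporter of mitochondria) was 1.2-fold higher, at 13.39, 13.26 and 13.31 against 13.09, 13.07 and 12.98 (0.26 ± 0.05, adjusted p = 0.00684). It lay at -0.02 with quantile normalization (adjusted p = 0.89) and was not called without preparation 3 (0.23, adjusted p = 0.0662) or with a control offset for each array (adjusted p = 0.465), and its smallest adjusted p was 2.69e-06.

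Slc30a7 (ZnT7, of the early Golgi) was at 4.90 throughout IP and 6.17, 6.21 and 6.17 in UB, at least 1.47-fold lower (limma, adjusted p = 1.16e-07). Slc30a7 had signal in UB alone, so the filter fixed its direction under control scaling. Slc30a4 (ZnT4) was 1.59-fold lower, at 10.78, 10.67 and 10.65 against 11.32, 11.37 and 11.38 (-0.67 ± 0.04, adjusted p = 1.12e-04). Slc30a1 (ZnT1, the exporter of the cell surface) was at 7.24 on all IP arrays and 7.43, 7.53 and 7.27 in UB and was not called (-0.18 ± 0.07, adjusted p = 0.0703). Without UB replicate 3 Slc30a1 was called lower (-0.25, adjusted p = 0.00671, range 3.35e-05 to 0.616). All 3 of these exporters (Slc30a7, Slc30a4 and Slc30a1) changed sign under whole-table median scaling (0.26, 0.88 and 1.37).

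Of the 9 tested importers 3 were called higher and 3 lower (33.3% each), against 30.9% and 43.5% of all tested probe sets. Slc39a12 (ZIP12) was at 2.37 throughout IP and 7.23 throughout UB, at least 3.04-fold lower (limma, adjusted p = 1.17e-12). Slc39a12 had signal in UB alone, so the filter fixed its direction under control scaling. Slc39a6 (ZIP6) was at 5.67, 5.57 and 5.48 in IP and 6.46, 6.43 and 6.43 in UB, 1.84-fold lower (-0.88 ± 0.05, adjusted p = 9.21e-05), with 1 IP array above 50. Slc39a3 (ZIP3) was 1.32-fold lower (7.15 on all IP arrays, 7.54 ± 0.15 SD in UB, adjusted p = 0.0089). With quantile normalization Slc39a6 and Slc39a3 were at 0.14 and 0.21, and without preparation 3 Slc39a3 was not called (-0.43, adjusted p = 0.0797, range 1.03e-04 to 0.454 over all alternatives). The other 3 importers were not called: Slc39a10 (ZIP10), 0.05 ± 0.06 (adjusted p = 0.537), Slc39a7 (ZIP7, of the endoplasmic reticulum), 0.12 ± 0.10 (adjusted p = 0.328), and Slc39a9 (ZIP9, of the Golgi), 0.41 ± 0.15 (adjusted p = 0.0597). The IP arrays of Slc39a9, at 8.17, 8.18 and 8.66, all lay above its UB arrays at 7.93, 7.90 and 7.90. Without IP replicate 3 Slc39a9 was called higher (0.25, adjusted p = 8.05e-04, range 1.41e-04 to 0.243), as it was with quantile normalization (0.82, adjusted p = 0.00101). Slc39a10, Slc39a7 and Slc39a9 were all called higher under tested-set median scaling (0.37, 0.45 and 0.73, adjusted p = 0.00452, 0.0127 and 0.00856) and under whole-table median scaling (1.60, 1.67 and 1.96).

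The untested zinc carriers gave little or no signal. Slc30a3 (ZnT3, which loads zinc into synaptic vesicles) was at 2.15 on all IP arrays and 5.20, 5.20 and 5.46 in UB, under 50 everywhere. Slc30a10 (ZnT10, a manganese exporter) was at the lowest level in IP and at 4.78, 5.51 and 5.85 in UB, the only untested member with an array above 50. Slc39a14 (ZIP14, for zinc, iron and manganese) was at 2.68 in IP and 3.83 in UB. Slc30a8, Slc39a2, Slc39a4, Slc39a5 and Slc39a8 lay within 0.1 of the lowest level. Of the 6 measured genes that bind, sense or sort zinc 5 were tested: Mt2 (metallothionein-2) was 5.86-fold lower (adjusted p = 0.00126), Ap3d1, of the adaptor complex that sorts ZnT3, 2.15-fold lower (adjusted p = 0.00124), and Mtf1, the metal-sensing transcription factor, near 50 in both fractions (5.66 and 5.59, called higher by 0.06, but not with a control offset for each array, adjusted p = 0.866). Mtf1 had signal in IP alone and values tied within each fraction, so the filter fixed its direction. Mt1 and the neuronal Mt3 were not called (-0.51, adjusted p = 0.0612, and 0.61, adjusted p = 0.560), and the list's median was -0.51. With the replicate block Mt1 was called lower (adjusted p = 0.00645), as it was without IP replicate 2 (-0.65, adjusted p = 0.0337) and with quantile normalization (-0.79, adjusted p = 0.00366). Under whole-table median scaling Mt1 was instead called higher (1.04, adjusted p = 0.00405). Ap3d1 was at 0.44 under whole-table median scaling.

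Promoter windows are shown for Slc39a11 and Slc30a5, the zinc genes called higher in which a metal response element core was found, and for Slc30a1, a known target of the metal-sensing factor MTF-1. Each holds the 250 bases before the first listed RefSeq start (build GRCm38.p6): Slc39a11 chr11:113650093-113650342 and Slc30a5 chr13:100833428-100833677 on the minus strand, and Slc30a1 chr1:191906531-191906780 on the plus strand. Capitals mark the core, searched as TGCGCNC or TGCACNC on both strands, and in all 3 genes the match is on the opposite strand. It begins 15, 48 and 43 bases before the start. The window of Slc30a5 also holds an E-box 61 bases before the start, which does not overlap the core.
Slc39a11: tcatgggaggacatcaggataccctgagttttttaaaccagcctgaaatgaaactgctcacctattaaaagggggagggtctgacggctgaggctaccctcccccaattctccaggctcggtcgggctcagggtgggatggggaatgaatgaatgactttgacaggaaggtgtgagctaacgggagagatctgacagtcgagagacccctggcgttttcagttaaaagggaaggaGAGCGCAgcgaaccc
Slc30a5: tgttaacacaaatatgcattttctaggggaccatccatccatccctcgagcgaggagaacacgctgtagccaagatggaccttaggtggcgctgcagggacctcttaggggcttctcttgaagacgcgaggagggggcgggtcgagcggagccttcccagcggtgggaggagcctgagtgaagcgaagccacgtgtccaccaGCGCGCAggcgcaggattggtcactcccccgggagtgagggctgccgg
Slc30a1: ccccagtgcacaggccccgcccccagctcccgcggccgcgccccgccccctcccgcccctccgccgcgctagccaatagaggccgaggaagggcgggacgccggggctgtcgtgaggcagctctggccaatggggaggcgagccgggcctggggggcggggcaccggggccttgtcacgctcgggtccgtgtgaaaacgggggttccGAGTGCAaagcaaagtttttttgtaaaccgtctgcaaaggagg
Windows were found for 31 of the 35 tested genes. At the first listed start the core was present in 2 of the 6 genes called higher, 9 of the 19 called lower and 2 of the 6 not called, and in 21.4% of all 32851 windows. The GC box GGGCGG was present in 5 of 6, 8 of 19 and 4 of 6, and in 32.7% of all windows. Over any listed start the core was present in 2, 10 and 2 genes and the GC box in 6, 9 and 4.

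All 4 tested phosphate and magnesium carriers were called lower in IP, against 43.5% of all tested probe sets. Slc41a3 had signal in UB alone, so the filter fixed its direction. Slc20a1 (PiT-1) was 2.8-fold lower, at 8.54, 8.42 and 8.44 against 9.91, 9.93 and 9.95 (limma, -1.48 ± 0.04, adjusted p = 3.83e-06). Slc20a2 (PiT-2) was at 7.04 on all IP arrays and 8.01, 8.01 and 8.06 in UB (-1.0 ± 0.02, adjusted p = 1.36e-06). Slc41a2 was 2.75-fold lower, at 6.63, 6.87 and 6.83 against 8.10, 8.31 and 8.25 (-1.46 ± 0.09, adjusted p = 1.01e-04), and these 3 genes were at 0.07, 0.55 and 0.09 under whole-table median scaling. Slc41a3, a magnesium carrier of mitochondria, was at 2.15, 2.20 and 2.15 in IP and 5.72 on all UB arrays, at least 1.07-fold lower (adjusted p = 2.35e-09). Slc41a1 was under 50 on all arrays (2.12 to 2.40 in IP, 5.13 to 5.38 in UB).

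Of 10 other genes of magnesium and phosphate handling measured, 7 were tested, 2 rose and 5 fell (median -0.91). Cnnm2, which regulates magnesium transport across the plasma membrane, was at 8.43, 9.54 and 9.29 in IP and 5.44, 5.54 and 5.54 in UB, at least 10.8-fold higher (limma, adjusted p = 3.68e-04). Cnnm2 had signal in IP alone, so the filter fixed its direction. Its relative Cnnm1 was at least 3.75-fold lower (adjusted p = 6.51e-07). Magt1 and the mitochondrial magnesium channel gene Mrs2 fell by bounds of 3.14-fold and 2.93-fold. Nipa2 was 1.83-fold higher, and Xpr1, the phosphate exporter, and Nipa1 were lower by 1.88-fold as a bound and 1.26-fold. Xpr1 and Nipa1 were at 0.64 and 1.22 under whole-table median scaling. With quantile normalization neither was called (0.07 and -0.34, adjusted p = 0.237 and 0.0631). Nipa1 was not called with the replicate block (adjusted p = 0.0591) or when any array but IP replicate 1 was left out (adjusted p from 0.0859 to 0.1).

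No carrier of iron passed the filter. Slc11a2 (DMT1, which brings iron into the cytosol) was at 4.61, 4.61 and 5.18 in IP and 3.62 on all UB arrays, under 50 everywhere. Slc40a1 (ferroportin, the iron exporter) and Slc11a1 were at the lowest level in IP and at 3.10 and 3.03 in UB. Of 12 measured genes of iron handling 6 were tested, 1 rose and 4 fell (median -0.69). Hfe, a partner of the transferrin receptor, was at 6.30, 6.42 and 7.20 in IP and 3.64, 3.71 and 3.34 in UB, at least 1.98-fold higher (limma, adjusted p = 4.56e-04). Hfe had signal in IP alone, so the filter fixed its direction. Trf (transferrin, made in the brain by oligodendrocytes and choroid plexus) was at least 47.4-fold lower (adjusted p = 3.93e-05), and the iron-regulatory protein gene Ireb2 and the ferritin gene Fth1 were 1.91-fold and 1.86-fold lower (adjusted p = 0.00134 and 0.0334). Leaving out either fraction's array of preparation 2 or 3 ended the Fth1 call (adjusted p between 0.0532 and 0.101), as did tested-set median scaling (-0.57, adjusted p = 0.114). Aco1 was 1.39-fold lower, a call lost without preparation 1 (adjusted p = 0.0501) or 3 (0.0572). The Aco1 call was also lost with quantile normalization (0.01, adjusted p = 0.912) and tested-set median scaling (-0.15, adjusted p = 0.184). With a control offset for each array its adjusted p was 0.162. Hmox2 was not called (0.07, adjusted p = 0.718) although the replicate block gave 0.0415. Ireb2, Fth1 and Aco1 changed sign under whole-table median scaling (0.62, 0.66 and 1.07).

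**Figure D3:**
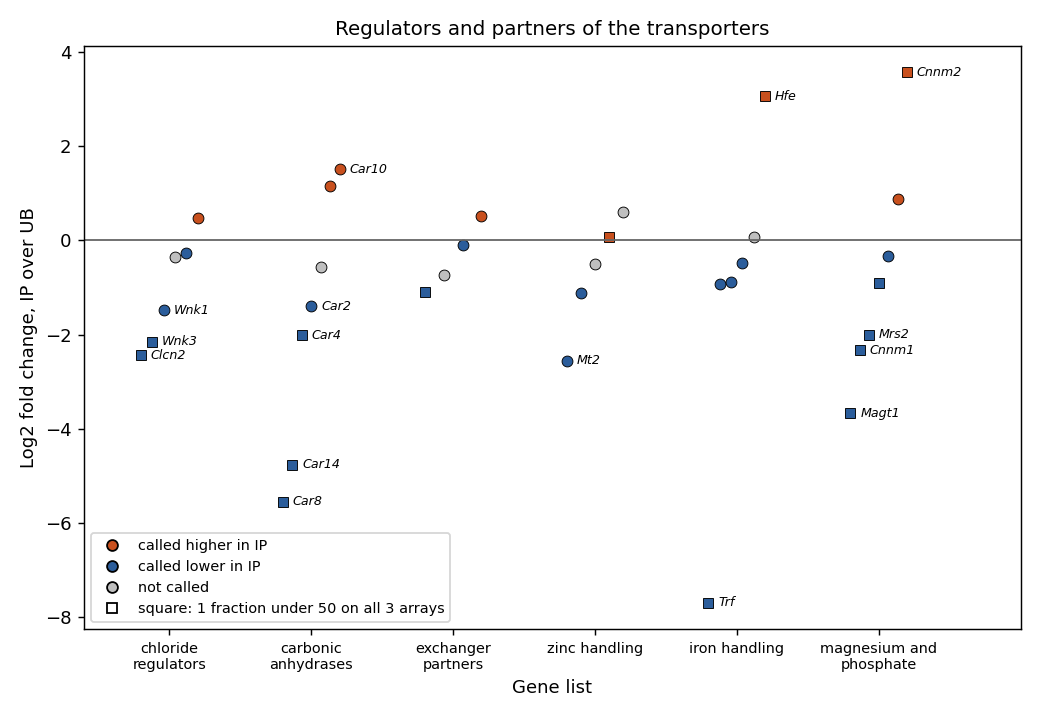
Log2 fold change of IP over UB (y axis) for the tested genes of 6 lists of regulators and partners (x axis), coloured by call. Squares are genes under 50 on all 3 arrays of 1 fraction, whose difference is that of the deposited levels. The filter fixed the direction of the squares under control scaling. Cnnm2 and Hfe lie highest, at 3.56 and 3.06, and Trf lowest at -7.69.

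Of the 29 called genes, 13 kept direction and call in all 18 alternatives: Slc12a2, Slc12a5, Slc24a3, Slc26a4, Slc26a11, Slc41a3, Slc4a4, Slc8a1, Slc9a3r1 and Slc39a12 as lower, and Slc30a5, Slc39a11 and Slc39a13 as higher. Of the 10 lower ones, all but Slc12a2 and Slc24a3 had signal in UB alone, so the filter fixed their direction under control scaling. Keeping direction in alternatives with that scaling is no sign of stability for them. Under whole-table median scaling the filter did not fix it. Slc12a9, Slc8a3 and Slc30a7, which also had signal in UB alone, changed sign there (1.31, 1.39 and 0.26). Leaving whole-table median scaling aside, 21 of the 29 kept direction and call. The 3 IP arrays lay above all 3 UB arrays for 7 of the 35 tested genes and below them for 25, against 33.4% and 46.6% of all tested probe sets. In 3 of the 35 the values were tied within both fractions (Slc12a9, Slc26a4 and Slc39a12), so their adjusted p-values rest on values without spread.

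**Figure D4:**
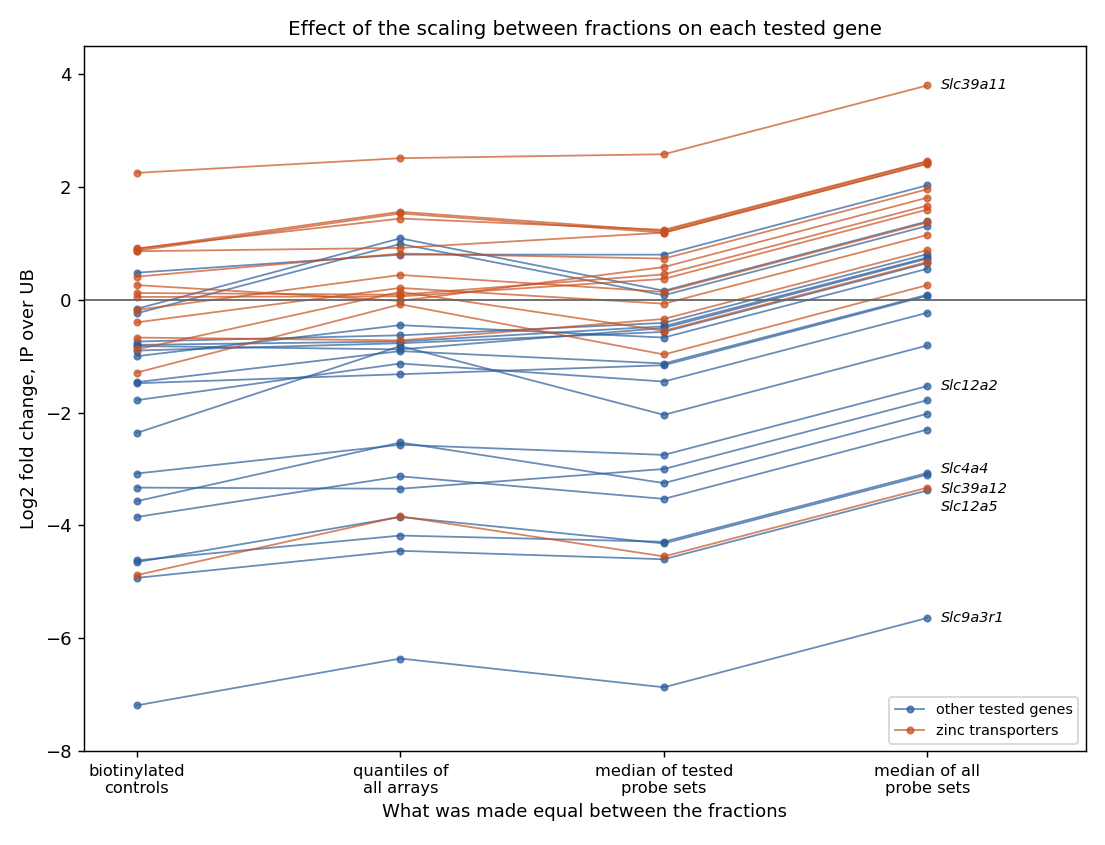
Log2 fold change of IP over UB (y axis) of each tested gene under 4 ways of scaling the fractions (x axis), with zinc transporters in orange and the other genes in blue. Slc39a11 is the top line under each, and Slc9a3r1 the bottom line.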

How the data were processed

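Levels on 6 Affymetrix arrays (3 IP, 3 UB) were deposited by the authors as log2 values made with GCRMA, per the submitters' processing notes, with replicates normalized within groups, per the series' design text. Neither its version nor the build of the array definition is given in the sources used here. The lowest value was 2.10 on all IP and 2.05 on all UB arrays. Probe sets were named from the platform annotation; of the 17370, 64 were controls and 842 carried no symbol and are unnamed here.

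Biotinylated controls (18 probe sets) differed by a mean of 0.0156 (IP minus UB, log2, SD 0.131 over control probe sets, SE 0.212 over arrays), which was subtracted from IP. This was a fixed value in the main fit, so its SE enters no SE or p-value of a gene. Probe sets with a linear level of 50 or more on at least 3 of 6 arrays, 8960 in all, were tested with limma 3.58.1 in R 4.3.3 (eBayes with a variance trend, 0.651 prior degrees of freedom, two-sided, Benjamini-Hochberg over all 8960, called at an adjusted p under 0.05). Without adjustment 6859 had p under 0.05. Where a fraction was under 50 on all its arrays, it was raised to 50 and the fold written as "at least", which holds at this offset only. Such a gene had signal in 1 fraction alone, so the filter fixed the direction of its difference at this offset. The bounds of Slc12a9, Slc8a3, Slc41a3, Chp2 and Mtf1 are smaller in size than the SD of the controls. That of Slc26a11 (-0.18, log2) is smaller in size than the SE over arrays (0.212). The limma fit was tested on simulated data with known changes.

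The labels tie the fractions of a preparation by number, and deviations of same-numbered arrays from their group means correlated (r = 0.592, 0.483 and 0.279 over tested probe sets). Pairs of unlike number ran from -0.514 to 0.315, and IP 3 correlated more with UB 2 (0.315) than with UB 3, so the pairing rests on the labels. The block on the replicate number was an alternative, with other scalings, no filter, a floor at 50, no variance trend, no tied probe sets, and arrays or preparations left out. Every gene matched by symbol is named, tested genes with values. The members, the lists of partners and markers, and the motifs were chosen with earlier results of these data known. Sequences are RefSeq's, build GRCm38.p6. Figures were drawn with matplotlib 3.10.9 from tables written with pandas 2.3.3 under Python 3.11.15.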

Additional observations from a re-analysis of the deposited data

How the results depend on the processing

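Under whole-table median scaling, 21 members were called higher and 10 lower (14 and 9 past 2-fold), and over all probe sets 6631 and 1586 (5480 and 1244). The differences that changed sign there were Slc4a10 (0.73), Slc4a1ap (0.65), Slc4a3 (0.81), Slc41a2 (0.09), Slc12a9 (1.31), Slc20a1 (0.07), Slc20a2 (0.55), Slc24a2 (0.75), Slc8a3 (1.39), Slc30a1 (1.37), Slc30a4 (0.88), Slc30a7 (0.26), Slc39a3 (1.15) and Slc39a6 (0.67). Under tested-set median scaling 11 members were called higher (5 past 2-fold), 1955 of all probe sets were called higher past 2-fold, and Slc12a9 (0.08), Slc8a3 (0.16) and Slc30a1 (0.14) changed sign. With quantile normalization 10 members were called higher (5 past 2-fold), and Slc12a9 (0.99), Slc8a3 (1.09), Slc30a1 (0.44), Slc30a9 (-0.02), Slc39a3 (0.21) and Slc39a6 (0.14) changed sign. With no filter 31 members were called higher (2 past 2-fold) and 33 lower, and 8557 and 5998 of all probe sets. The cause of these changes was not tested.

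With arrays or preparations left out, members called higher ranged from 4 to 7 and lower from 23 to 24, and past 2-fold from 1 to 2 and from 14 to 15. The count of 2 came without IP replicate 1, UB replicate 1, UB replicate 2 or preparation 1. Over all probe sets these ranges were 1993 to 2958, 3199 to 3964, 1021 to 1413 and 2324 to 2526. Slc12a5 ranged from -4.96 to -4.90. Slc39a10, not called, was at -0.02 without IP replicate 1 and -0.03 without replicate 1. With the replicate block 5 members were called higher and 23 lower; Slc30a6 lost its call (0.91, adjusted p = 0.0517) and no other member's call changed. Among the partner genes Car11, Mt1 and Hmox2 gained calls with the block and Car2, Ahcyl2 and Nipa1 lost theirs. The 6 arrays, 3 a group, and levels near 50 limit the precision.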
